A study of Mus musculus with 30 samples.

Results

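Dusp1, Dusp2, Dusp4, Dusp5, Dusp6 and Dusp7 are dual-specificity phosphatase genes of ERK feedback, taken by symbol from the 54532 features of the count files. All 6 were found, each as 1 feature, and all 6 were among the 13286 genes tested. Their messenger RNA was measured in 30 tumours grown under the skin from 5 clones of YUMM1.7, a mouse melanoma cell line with mutant Braf, labelled with the strain C57BL/6. The clones were 2646R and 2646TN, 14559R and 14559TN, and 13TN. Tumours of each clone were either treated with RAFi/MEKi, inhibitors of the kinases RAF and MEK, or untreated, with 3 tumours in each of the 10 groups. The agents, doses, treatment times and animal ages are not given in the sources used here. The labels do not spell out R and TN, the sample titles of 13TN carry the word Depleted, and every line is 1 clone, so a difference between lines is a difference between single clones. Per the labels' protocols, clones had been isolated with CaTCH barcodes, tumours were dissociated with collagenase, and GFP-positive live cells were sorted after a CD45 stain.

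ERK is switched on by phosphorylation at the end of the RAF, MEK and ERK kinase cascade, and the DUSP enzymes switch it off by removing those phosphates. Several DUSP genes are themselves transcribed in response to ERK activity, so they form a negative feedback loop and their transcripts are often read as a measure of the pathway's output in melanoma with mutant BRAF. Dusp1, Dusp2, Dusp4 and Dusp5 encode inducible enzymes of the nucleus. Dusp6 and Dusp7 encode enzymes of the cytoplasm with a preference for ERK.

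Library totals ran from 3022801 to 5278453 counts, with a median of 4042893, and levels are given in CPM, counts scaled to library size with TMM factors. Reads come from transcript 3′ ends, so CPM of different genes are not set against each other here. In cells sorted from a tumour, fewer cells of a type and less RNA per cell cannot be told apart. Of 7 melanocytic markers, Mitf had counts in all 30 libraries (12.0 to 81.3 CPM), Sox10 in 20 and Mlana in 1, while Dct, Tyr and Tyrp1 were at 0 in all 30. The name of a melanoma line comes from the labels and was not tested with these markers. Sox10 had a median of only 0.307 CPM over the libraries, and Pmel counts were low. Summed lymphocyte markers reached at most 2.52 CPM in any library, with Cd3g, Cd79a and Ms4a1 at 0 in all 30. Summed macrophage markers averaged 31.9 to 207 CPM and summed fibroblast markers 1896 to 10400 CPM over the 10 groups.

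The members lie on 6 chromosomes. In the GRCm38 coordinates of the count files, Dusp1 spans chr17:26505590-26508519 on the minus strand. The others are on the plus strand: Dusp2 at chr2:127336159-127338376, Dusp4 at chr8:34807297-34819894, Dusp5 at chr19:53529109-53542431, Dusp6 at chr10:99263231-99267489 and Dusp7 at chr9:106368632-106375724. All are protein-coding genes, and their merged exons form 2 to 4 blocks of 2003 to 3356 bases in total. Among genes of the GENCODE vM21 annotation, only the antisense gene AC137853.2 overlaps a member's span, that of Dusp5. It is not a feature of the count files, and features outside that annotation were not searched.

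Promoter windows were taken from RefSeq, build GRCm38.p6, as the 250 bases before the annotated start, and matched 5 of the 6 members by symbol; Dusp4 had no entry. They are shown so that motifs bound by factors downstream of kinase signalling can be seen in place. Motifs searched on both strands were the cyclic AMP response element (CRE) TGACGTCA, its core TGACG and the AP-1 site TGANTCA. The ETS motif CCGGAA, the E-box CACGTG and the CArG box, the site of serum response factor, were searched as well. Every full CRE also holds the core on both strands. Capitals mark the matches, and sequences run 5′ to 3′ on the gene's strand. The windows of Dusp1 and Dusp5 run partly into the spans given above, as the RefSeq start lies inside them. The windows are chr17:26508473-26508722 (minus strand) for Dusp1, chr2:127335909-127336158 for Dusp2, chr19:53528895-53529144 for Dusp5 and chr10:99262981-99263230 for Dusp6, the last 3 on the plus strand.
Dusp1: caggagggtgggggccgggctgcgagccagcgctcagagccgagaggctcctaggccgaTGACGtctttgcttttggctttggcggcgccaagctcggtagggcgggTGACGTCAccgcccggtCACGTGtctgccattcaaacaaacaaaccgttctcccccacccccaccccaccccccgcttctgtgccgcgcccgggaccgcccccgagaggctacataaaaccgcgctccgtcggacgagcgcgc
Dusp2: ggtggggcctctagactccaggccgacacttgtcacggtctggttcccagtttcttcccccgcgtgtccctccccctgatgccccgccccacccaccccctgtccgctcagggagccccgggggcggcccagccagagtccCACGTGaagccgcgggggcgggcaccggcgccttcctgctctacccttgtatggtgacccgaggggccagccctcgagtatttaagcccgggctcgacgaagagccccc
Dusp5: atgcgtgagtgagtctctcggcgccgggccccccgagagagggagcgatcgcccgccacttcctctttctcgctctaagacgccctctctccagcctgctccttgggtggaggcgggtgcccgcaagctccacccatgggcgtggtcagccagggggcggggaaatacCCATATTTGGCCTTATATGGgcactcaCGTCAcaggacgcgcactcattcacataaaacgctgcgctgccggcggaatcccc
Dusp6: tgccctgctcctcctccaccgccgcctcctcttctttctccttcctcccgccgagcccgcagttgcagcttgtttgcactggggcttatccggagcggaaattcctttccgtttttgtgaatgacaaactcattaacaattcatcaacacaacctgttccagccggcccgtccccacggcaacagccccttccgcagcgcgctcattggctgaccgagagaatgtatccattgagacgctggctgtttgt

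The Dusp1 window held a full CRE between bases 143 and 136 before the start, a further CRE core between bases 191 and 187, and an E-box between bases 126 and 121. Of 32851 RefSeq promoter windows of the same length, 1.55% held the full CRE, 17.8% the CRE core and 6.02% the E-box. Dusp2 held 1 E-box, between bases 109 and 104. Dusp5 held 2 adjoining CArG boxes, between bases 82 and 73 and between bases 72 and 63, a motif found in 1.47% of all windows, and a CRE core between bases 55 and 51. No motif of the search matched in the windows of Dusp6 and Dusp7. The AP-1 site (6.75% of all windows) and the ETS motif CCGGAA (12% of all windows) matched in none of the 5. The shorter ETS core GGAA was not searched, so windows without CCGGAA can still hold it. These matches describe letters in a window and were not tested as binding sites.

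Across the 30 tumours, RAFi/MEKi lowered Dusp4, Dusp2 and Dusp5 in some clones and not in others. None of the 6 genes passed the test in 14559R, where 0.196% of all tested genes were called. Both R clones had higher Dusp2, Dusp4 and Dusp5 than their TN partners, with or without drug. Dusp6, often used as a readout of ERK output, was not called in the response of any clone, but stood higher in 14559R than in 14559TN in both conditions. Averaged over the 5 clones, 3 of the 6 members were lower with RAFi/MEKi, namely Dusp4 by 1.27 ± 0.16, Dusp5 by 0.69 ± 0.15 and Dusp2 by 0.83 ± 0.21 on the log2 scale (edgeR adjusted p = 6.36e-08, 0.000445 and 0.00269). In that comparison 21.0% of all tested genes were called lower. Dusp1, at -0.35 ± 0.20 (adjusted p = 0.185), was called as well without treated 14559TN replicate 2 (-0.51, 0.0233). A log2 fold change is given with its standard error (SE), and a call is an adjusted p under 0.05 over all tested genes.

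**Figure D1:**
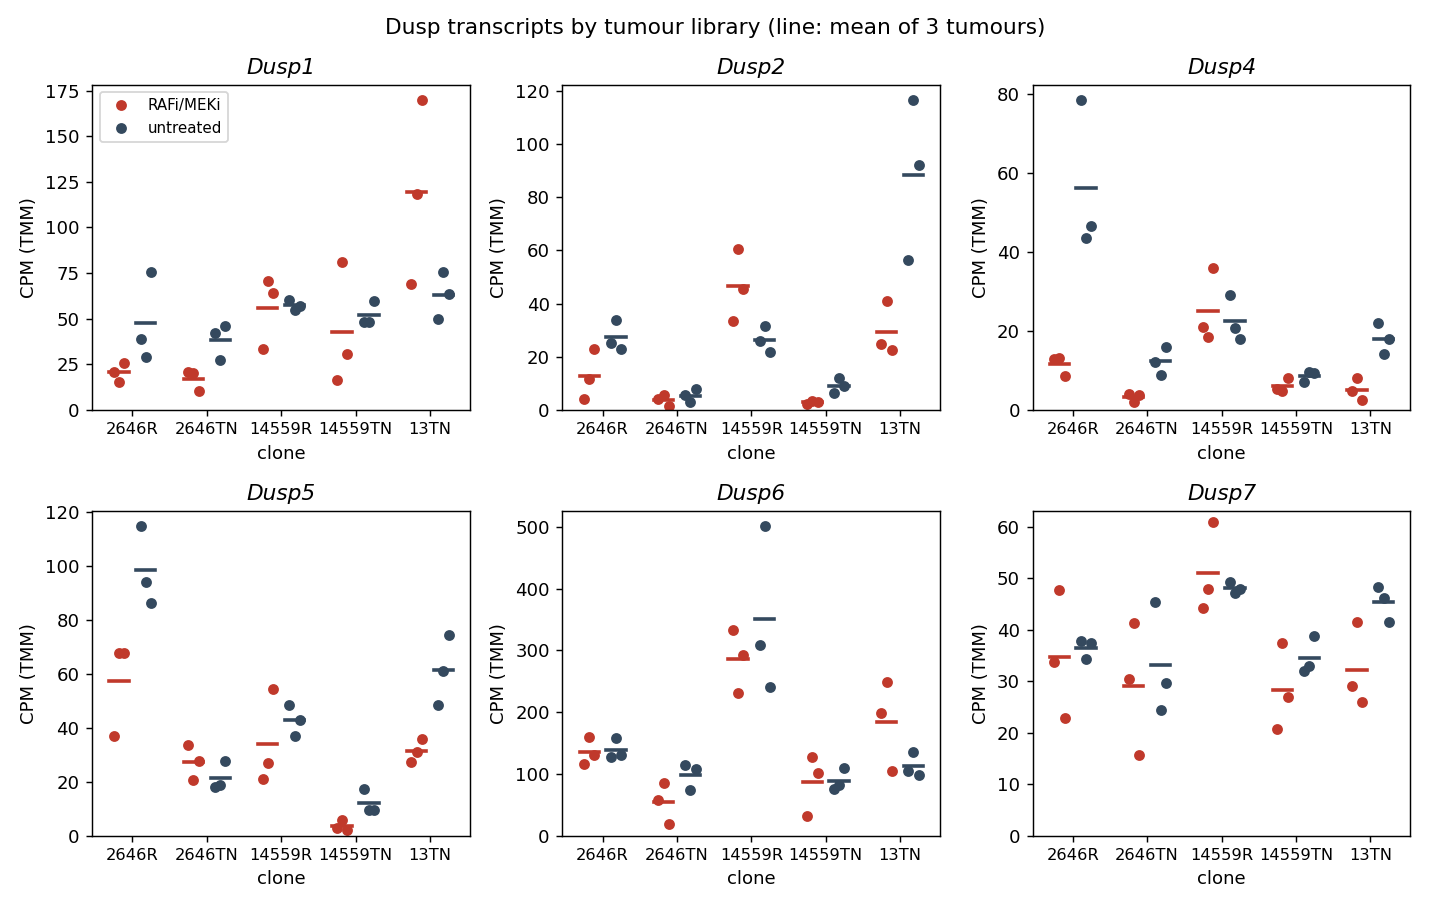
Level of each member in CPM (linear axis) in the 10 groups, with RAFi/MEKi left of untreated for each clone; points are tumours and horizontal lines are group means. The means of Dusp2, Dusp4 and Dusp5 stand lower in the TN clones 2646TN and 14559TN than in their R partners, and Dusp6 stands at 230.5 to 502 CPM in all 6 14559R libraries.

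Dusp4, which encodes an inducible nuclear phosphatase of ERK and JNK, was called in the responses of 3 clones. In 2646R it had 12.8, 13.1 and 8.60 CPM with RAFi/MEKi, against 78.6, 43.6 and 46.7 CPM untreated. In 2646TN it had 3.95, 1.95 and 3.79 CPM with RAFi/MEKi, against 12.1, 8.73 and 16.0 CPM untreated. In both clones every treated tumour lay below every untreated one. Dusp4 fell by 2.29 ± 0.31 on the log2 scale in 2646R (4.88-fold lower, edgeR adjusted p = 2.90e-06) and by 1.91 ± 0.39 in 2646TN (3.75-fold lower, adjusted p = 0.00282). The treated 2646TN libraries held only 6 to 15 Dusp4 counts each.

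The clone 13TN showed a like fall in Dusp4, with 4.74, 8.17 and 2.52 CPM with RAFi/MEKi, against 21.9, 14.1 and 17.8 CPM untreated. The log2 change was -1.79 ± 0.35 (3.45-fold lower, edgeR adjusted p = 0.000171) and the groups did not overlap. In 14559TN the values were 5.40, 4.81 and 8.00 CPM with RAFi/MEKi, against 7.11, 9.53 and 9.33 CPM untreated. These groups overlapped, and the log2 change of -0.52 ± 0.37 was not called (edgeR adjusted p = 0.306). In 14559R Dusp4 had 21.1, 18.6 and 35.9 CPM with RAFi/MEKi, against 29.2, 20.8 and 17.8 CPM untreated, a log2 change of 0.15 ± 0.30 (adjusted p = 0.914). The 5 responses of Dusp4 differed from each other (edgeR F test with 4 numerator degrees of freedom, F = 10.4, adjusted p = 0.000246), and 28.8% of all genes passed that test.

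Between partners, Dusp4 was higher in the R clone in all 4 comparisons, and the groups did not overlap in any of them. The log2 difference of 2646R over 2646TN was 1.81 ± 0.39 with RAFi/MEKi (edgeR adjusted p = 0.00112) and 2.19 ± 0.31 untreated (1.94e-06). That of 14559R over 14559TN was 2.06 ± 0.34 with RAFi/MEKi (8.87e-06) and 1.39 ± 0.33 untreated (0.00222). Treated 2646R tumours (11.5 ± 2.52 CPM, SD, n = 3) had Dusp4 close to the level of untreated 2646TN tumours (12.3 ± 3.62), with a log2 difference of -0.10 ± 0.33 (adjusted p = 0.863). Treated 14559R tumours (25.2 ± 9.34 CPM) stayed above untreated 14559TN tumours (8.65 ± 1.34), by 1.54 ± 0.33 on the log2 scale (adjusted p = 0.00119).

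Dusp2 encodes a nuclear phosphatase best known from stimulated blood cells. In 13TN it had 24.8, 40.8 and 22.4 CPM with RAFi/MEKi, against 56.2, 117 and 92.3 CPM untreated. The treated tumours all lay below the untreated ones, and Dusp2 fell by 1.59 ± 0.38 on the log2 scale (3.00-fold lower, edgeR adjusted p = 0.00236). In 14559TN it had 2.27, 3.13 and 2.86 CPM with RAFi/MEKi, against 6.35, 12.0 and 8.82 CPM untreated. It fell there by 1.68 ± 0.56 (3.20-fold lower, adjusted p = 0.0251), again with no overlap, on 8 to 15 counts in each treated library. That call was lost without treated 14559TN replicate 1, 2 or 3 (edgeR adjusted p = 0.0856, 0.0584 and 0.0705) and without untreated replicate 2 or 3 (0.101 and 0.0612), at log2 changes of -1.79 to -1.42.

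In 2646R Dusp2 had 4.12, 11.5 and 22.8 CPM with RAFi/MEKi, against 25.3, 33.9 and 23.0 CPM untreated. The treated tumours spread widely, the highest lying just below the lowest untreated one, and the log2 change of -1.12 ± 0.41 missed the threshold (edgeR adjusted p = 0.0565). Without treated 2646R replicate 3 it was called, at -1.79 (adjusted p = 0.00477). In 2646TN Dusp2 had 4.24, 5.52 and 1.51 CPM with RAFi/MEKi, against 5.54, 2.81 and 7.64 CPM untreated, and the groups overlapped (-0.59 ± 0.57, adjusted p = 0.711). In 14559R it had 33.6, 60.6 and 45.5 CPM with RAFi/MEKi, against 25.9, 31.7 and 21.7 CPM untreated. Every treated 14559R tumour lay above every untreated one, yet the log2 change of 0.81 ± 0.38 was not called (edgeR adjusted p = 0.453).

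The Dusp2 response differed between 14559R and 14559TN. The response of 14559R minus that of 14559TN was 2.49 ± 0.67 on the log2 scale (edgeR adjusted p = 0.0158), the only one of the 6 members called in that difference, in which 12.0% of all genes were called. Without untreated 14559TN replicate 2 it was 2.24 and missed the threshold (adjusted p = 0.0506). Dusp5 stood at 1.40 ± 0.52 in that difference (edgeR adjusted p = 0.0775) and was called by DESeq2 (1.38, 0.0448) and without treated 14559TN replicate 2 (1.97, 0.0322) or treated 14559R replicate 1 (1.61, 0.0313). Treated 14559R tumours had 46.5 ± 13.5 CPM of Dusp2 and treated 14559TN tumours 2.75 ± 0.44 (SD, n = 3 each), a log2 difference of 4.05 ± 0.50 (16.5-fold, adjusted p = 3.57e-07). Untreated, the difference of 14559R over 14559TN was 1.56 ± 0.43 (adjusted p = 0.00994, or 0.0642 without untreated 14559TN replicate 1, at 1.34). The F test over the 5 responses gave 6.20 for Dusp2 (adjusted p = 0.00827).

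Dusp2 was also higher in 2646R than in 2646TN, by 1.79 ± 0.52 with RAFi/MEKi (edgeR adjusted p = 0.0161) and by 2.32 ± 0.46 untreated (0.000307). The treated groups overlapped, since treated 2646R replicate 1 (4.12 CPM) lay within the range of treated 2646TN (1.51 to 5.52 CPM). The treated call was lost without treated 2646R replicate 3 (1.10, adjusted p = 0.147), without treated 2646TN replicate 3 (1.40, 0.108) and when only the compared groups were fitted (1.77, 0.0610). Summed macrophage markers stood at 105 to 125 CPM in treated 2646R and 28.2 to 62.8 CPM in treated 2646TN, with 4 of 10 tested markers higher and 0 lower. Untreated, they stood at 29.8 to 63.7 CPM in 2646R and 150 to 242 CPM in 2646TN, with 0 higher and 6 lower. Their part in the Dusp2 values was not tested.

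Dusp5 encodes a nuclear phosphatase specific to ERK. In 14559TN it had 2.84, 5.64 and 2.00 CPM with RAFi/MEKi, against 17.3, 9.53 and 9.58 CPM untreated. It fell by 1.73 ± 0.42 on the log2 scale (3.32-fold lower, edgeR adjusted p = 0.00251), with no overlap between the groups. In 13TN it had 27.3, 31.1 and 35.8 CPM with RAFi/MEKi, against 48.5, 60.8 and 74.5 CPM untreated. The fall there was 0.96 ± 0.30 (1.95-fold lower, adjusted p = 0.0145), also without overlap. This call was lost without untreated 13TN replicate 3 (-0.78, adjusted p = 0.0894) and without treated 13TN replicate 1 or 2 (-0.83 and -0.92, adjusted p = 0.0808 and 0.0535).

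In 2646R Dusp5 had 36.9, 67.7 and 67.6 CPM with RAFi/MEKi, against 115, 94.0 and 86.3 CPM untreated. Here too the treated tumours all lay below the untreated ones, and the log2 change of -0.78 ± 0.29 just missed the threshold (edgeR adjusted p = 0.0528). A fit of only the 2 groups called it (-0.78, adjusted p = 0.0194). In 2646TN Dusp5 had 33.6, 20.5 and 27.8 CPM with RAFi/MEKi, against 17.9, 18.7 and 27.6 CPM untreated, a log2 change of 0.35 ± 0.32 (adjusted p = 0.686). In 14559R it had 20.9, 26.9 and 54.3 CPM with RAFi/MEKi, against 48.4, 37.0 and 42.8 CPM untreated (-0.33 ± 0.30, adjusted p = 0.766). The groups overlapped in both clones.

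The 5 Dusp5 responses differed by the F test (F = 4.67, edgeR adjusted p = 0.0239). That call was lost without any 1 of 7 libraries, with adjusted p values between 0.0552 and 0.0724: untreated 2646TN replicate 1 or 2, untreated 14559TN replicate 1, and treated replicates 1 and 3 of both TN clones of the pairs. Between partners Dusp5 was higher in R in all 4 comparisons, with no overlap. It was higher in 2646R than in 2646TN by 1.07 ± 0.30 with RAFi/MEKi (adjusted p = 0.0132) and by 2.19 ± 0.31 untreated (3.45e-06). It was higher in 14559R than in 14559TN by 3.20 ± 0.39 with RAFi/MEKi (9.21-fold, 1.56e-07) and by 1.81 ± 0.33 untreated (0.000184). The treated call of 2646R over 2646TN was lost without treated 2646TN replicate 2 (0.92, adjusted p = 0.0566) and without treated 2646R replicate 2 or 3 (0.94 and 0.95, 0.0606 and 0.0518).

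Dusp1 encodes an immediate-early nuclear phosphatase that also acts on the p38 and JNK kinases. In 2646R it had 20.6, 15.5 and 25.6 CPM with RAFi/MEKi, against 39.1, 29.1 and 75.4 CPM untreated. In 2646TN it had 20.6, 20.5 and 10.1 CPM with RAFi/MEKi, against 42.1, 27.1 and 45.9 CPM untreated. The groups did not overlap in either clone, but neither difference was called (log2 changes of -1.21 ± 0.47 and -1.19 ± 0.50, edgeR adjusted p = 0.0757 and 0.214). Fits of only the 2 groups called both, at -1.22 (adjusted p = 0.0192) in 2646R and -1.18 (0.0478) in 2646TN. In 13TN Dusp1 had 69.2, 118 and 170.2 CPM with RAFi/MEKi, against 49.9, 75.4 and 63.4 CPM untreated, a log2 change of 0.92 ± 0.44 (adjusted p = 0.118).

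Treated 14559TN libraries spread widely in Dusp1, at 16.2, 81.3 and 30.9 CPM, against 48.0, 48.3 and 59.8 CPM untreated (-0.26 ± 0.45, edgeR adjusted p = 0.711). In 14559R the values were 33.6, 70.8 and 63.9 CPM with RAFi/MEKi, against 60.3, 54.8 and 56.7 CPM untreated (-0.03 ± 0.44, adjusted p = 0.998). Dusp1 was not called between R and TN partners in either condition (log2 differences of 0.14 to 0.37). Without treated 14559TN replicate 2, the highest of its group, Dusp1 was called in treated 14559R over treated 14559TN (1.23, adjusted p = 0.0255, against 0.37 with it). The 5 Dusp1 responses missed the threshold of the F test (F = 3.77, adjusted p = 0.0602). They passed it without any 1 of 5 libraries, namely treated 14559TN replicate 1 or 2, treated 13TN replicate 1, treated 14559R replicate 1 or untreated 2646R replicate 2 (adjusted p between 0.00874 and 0.0478), and in DESeq2 (0.0203). Dusp1 moved with a list of 13 genes that tissue dissociation is known to induce, such as Fos, Jun and Egr1: within groups the deviations of Dusp1 and of the summed list had a Pearson r of 0.739 over 30 libraries. The same r, on log2(CPM + 0.5), was 0.543 for Dusp5, 0.452 for Dusp2, 0.342 for Dusp6, 0.184 for Dusp7 and -0.007 for Dusp4. Other lists had values larger in size for some members. With fibroblast markers r was 0.547 for Dusp6, 0.388 for Dusp7 and -0.416 for Dusp4, and with macrophage markers it was -0.508 for Dusp6. In treated 14559TN the summed dissociation list stood at 648.5, 1660 and 1001 CPM, in the order of the Dusp1 values above, against 777 to 919 CPM untreated, with 3 of 13 genes called higher and 0 lower. In 14559R it stood at 1574 to 2112 CPM treated and 1739 to 1870 CPM untreated, with none of the 13 called. In 13TN it stood at 1685 to 2869 CPM treated and 1253 to 1947 CPM untreated, with 6 of 13 genes called higher and 0 lower. In 2646TN it stood at 738 to 1064 CPM treated and 1466 to 2376 CPM untreated, with 0 called higher and 4 lower, and in 2646R at 1011 to 1778 CPM treated and 1266 to 1583 CPM untreated, with none of the 13 called. Of these genes, 6 are ERK targets listed below as well, so the list is no separate measure of handling. The part of dissociation in the values of Dusp1, Dusp2 and Dusp5 was not tested.

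Dusp6, a cytoplasmic ERK phosphatase, had its 2 highest group means in 14559R, though 1 treated 13TN tumour (249 CPM) lay within the range of the 14559R tumours. In 14559R it had 333, 230.5 and 293 CPM with RAFi/MEKi, against 309, 502 and 241 CPM untreated, a log2 change of -0.30 ± 0.42 (edgeR adjusted p = 0.867). In 14559TN it had 31.8, 127 and 101 CPM with RAFi/MEKi, against 75.9, 81.1 and 109 CPM untreated (-0.03 ± 0.44, adjusted p = 0.976). Treated and untreated tumours overlapped in both clones. Dusp6 was higher in 14559R than in 14559TN by 1.71 ± 0.44 with RAFi/MEKi (3.28-fold, adjusted p = 0.00297) and by 1.98 ± 0.44 untreated (3.95-fold, adjusted p = 0.00249), with every 14559R tumour above every 14559TN tumour.

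In 2646R Dusp6 had 116, 160.2 and 131 CPM with RAFi/MEKi, against 127, 159 and 130.3 CPM untreated (-0.03 ± 0.43, edgeR adjusted p = 0.972). In 2646TN it had 57.9, 85.1 and 19.2 CPM with RAFi/MEKi, against 114, 74.2 and 108 CPM untreated (-0.89 ± 0.45, adjusted p = 0.350). In 13TN it had 198, 249 and 105 CPM with RAFi/MEKi, against 105, 135 and 98.5 CPM untreated (0.71 ± 0.43, adjusted p = 0.231). The groups overlapped in all 3 clones. Over 2646TN, Dusp6 was higher in 2646R by 1.34 ± 0.45 with RAFi/MEKi (adjusted p = 0.0405) and by 0.49 ± 0.44 untreated, which was not called (0.408). The treated call was lost in a fit of only the compared groups (1.33, adjusted p = 0.0769) and without treated 2646TN replicate 1 or 3 (1.43 and 0.95, 0.0736 and 0.178) or treated 2646R replicate 1, 2 or 3 (1.46, 1.22 and 1.39, with 0.0539, 0.115 and 0.0714).

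Dusp7, the other cytoplasmic ERK phosphatase, had the narrowest span of group means among the members. Its highest group mean was 51.0 ± 8.75 CPM in treated 14559R and its lowest 28.3 ± 8.43 CPM in treated 14559TN (SD, n = 3 each), a ratio of 1.80. It was not called in any clone's response, with log2 changes of -0.49 to 0.08. It had 44.2, 47.9 and 60.9 CPM in treated 14559R tumours, against 20.7, 37.4 and 26.9 CPM in treated 14559TN tumours, with no overlap and a log2 difference of 0.84 ± 0.27 (edgeR adjusted p = 0.0107). That call was lost without treated 14559TN replicate 1 (0.63, adjusted p = 0.0789) and without treated 14559R replicate 3 (0.69, adjusted p = 0.0598). Untreated, the difference was 0.48 ± 0.27 (adjusted p = 0.203), with every 14559R tumour again above every 14559TN tumour.

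**Figure D2:**
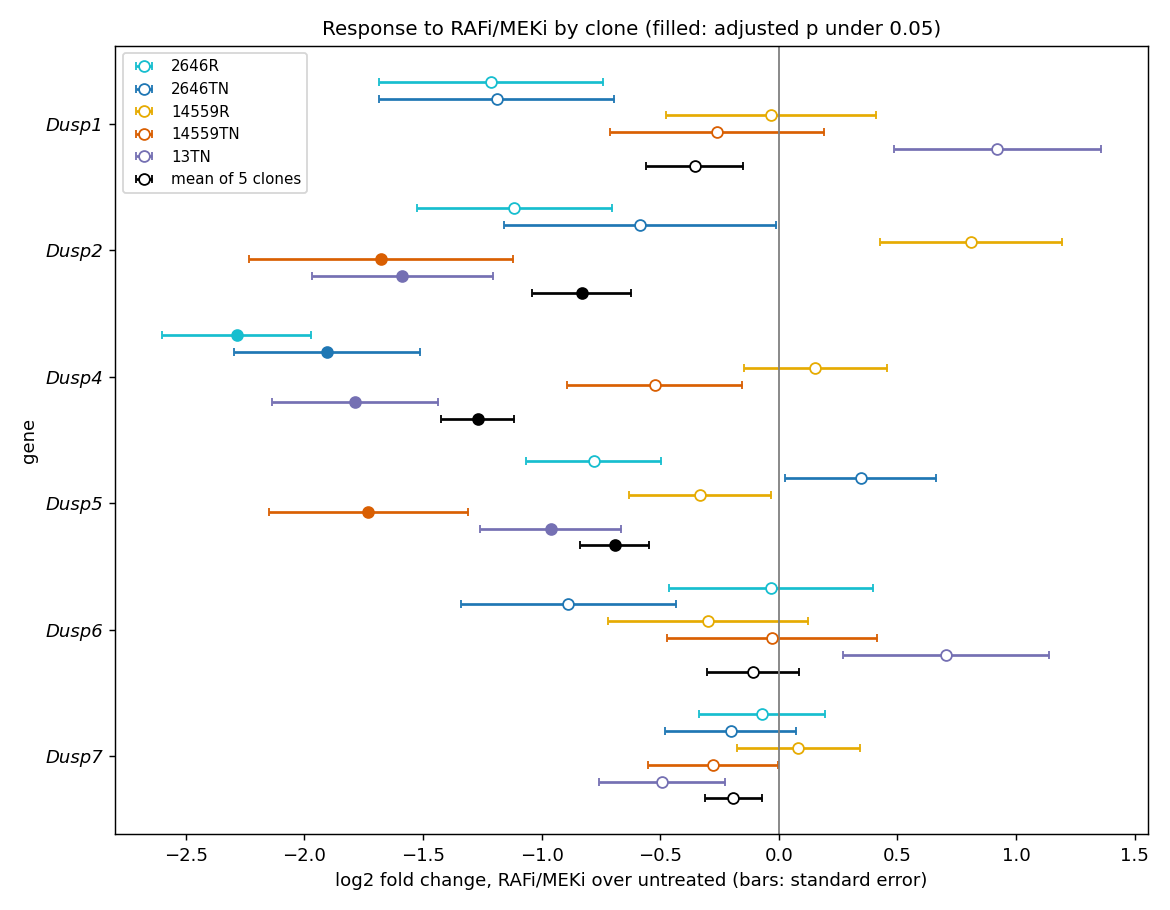
Log2 fold change of each member, RAFi/MEKi over untreated, in each clone and averaged over the 5 clones, with standard errors; filled points have an edgeR adjusted p under 0.05. Dusp4 lies lowest in 2646R (-2.29), 2646TN (-1.91) and 13TN (-1.79), and no point of 14559R is filled.

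Set beside all genes, the members' calls differed by clone. In 2646R 1 of 6 members was called lower, against 10.2% of all genes, and in 2646TN 1 of 6, against 2.24%. In 14559R 0 of 6 members were called, against 0.196% of all genes, with 1 of 6 (Dusp2) at an unadjusted p under 0.05 and 0 of 6 called by DESeq2. The shares of all genes at that unadjusted threshold and in DESeq2 were not computed. In 14559TN 2 of 6 were lower, against 16.0%, and in 13TN 3 of 6, against 17.4%. No member was called higher with RAFi/MEKi in any clone, against 9.70% of all genes in 2646R, 1.69% in 2646TN, 0.143% in 14559R, 12.4% in 14559TN and 13.6% in 13TN. The median log2 change of the 6 members was -0.95 in 2646R, -0.74 in 2646TN, 0.03 in 14559R, -0.40 in 14559TN and -0.73 in 13TN, while the median over all tested genes lay between -0.002 and 0.012. Every treated tumour lay below every untreated one for 4 of 6 members in 2646R (17.3% of all genes), 2 in 2646TN (10.2%), 2 in 14559TN (24.5%) and 4 in 13TN (24.1%). In 14559R 0 members lay wholly below (6.97%) and 1, Dusp2, wholly above (7.41%).

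Some fibroblast markers were called higher in treated tumours of 4 clones. Of 7 such markers 3 rose in 2646R, 1 in 2646TN, 0 in 14559R, 4 in 14559TN and 4 in 13TN, with 0 called lower in any clone. In the mean response over clones 5 rose and 1 fell, Thy1 (-0.84 ± 0.31, edgeR adjusted p = 0.0328). Their summed level was 5321 to 6847 CPM in treated and 1490 to 3106 CPM in untreated 2646R, and 4544 to 5573 CPM in treated and 1746 to 2147 CPM in untreated 13TN. A few matrix genes weigh most in these sums. Over the 30 libraries the median was 2520 CPM for Col3a1 and 790 CPM for Col1a1, against 4.41 CPM for Lum and 1.68 CPM for Thy1. Macrophage markers moved in opposite directions in 2646R and 2646TN. In 2646R they summed to 105 to 125 CPM treated and 29.8 to 63.7 CPM untreated, with 2 of 10 higher and 0 lower. In 2646TN they summed to 28.2 to 62.8 CPM treated and 150 to 242 CPM untreated, with 0 of 10 higher and 6 lower, and in their response difference, 2646R minus 2646TN, 7 of 10 were called higher. In 14559TN 0 were higher and 1 lower, and none of the 10 was called in the responses of 14559R and 13TN. The part of these lists in the Dusp values was not tested.

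The comparison of R with TN clones asked how far partners differed with and without the drug. With RAFi/MEKi 4 of 6 members were higher in 2646R than in 2646TN, against 10.0% of all genes, and 5 of 6 were higher in 14559R than in 14559TN, against 26.6%. Untreated, 3 of 6 were higher in 2646R, against 18.3% of all genes, and 4 of 6 in 14559R, against 12.9%. No member was lower in an R clone in these 4 comparisons, against 10.1% of all genes in treated 2646R and 22.7% in treated 14559R, and 18.4% and 11.2% in the untreated tumours of these clones. The count of 4 for treated 2646R did not hold in other fits: leaving out any 1 of the 6 libraries gave 1 to 3 members called, and fitting the compared groups alone gave 2. The treated and the untreated comparison of a pair use different tumours, while the responses above share these tumours with them.

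Other lists moved in the same comparisons. Dissociation stress genes were higher in 14559R than in 14559TN for 6 of 13 genes with RAFi/MEKi (median log2 difference 0.86) and for 6 of 13 untreated (1.03), with 0 lower in both. In 2646R over 2646TN 3 of 13 were higher and 0 lower treated (0.94), and 0 were higher and 5 lower untreated (-0.23). Fibroblast markers were higher for 3 of 7 and lower for 1 in both comparisons of 14559R with 14559TN, with 1 higher and 2 lower in treated 2646R and 2 higher and 2 lower in untreated 2646R. Macrophage markers were higher for 1 of 10 and lower for 2 in treated 14559R, and lower for 1 in untreated 14559R. Of 3 tested endothelial markers, 1 was higher and 2 lower in treated 14559R, and 1 was lower untreated. In 2646R 0 were higher, with 1 lower treated and 2 untreated. Treated 14559R replicate 3 stood at 40.4 CPM in summed endothelial markers, against 4.535 and 4.88 CPM in replicates 1 and 2. Most of that sum was Cdh5 alone, whose highest value in any library was 36.9 CPM. Kdr was called lower in treated 14559R than in treated 14559TN (-2.37 ± 0.91, edgeR adjusted p = 0.0301). Treated 14559R replicate 3 was also highest of its group in Dusp4, Dusp5 and Dusp7. Of 2 tested melanocytic markers, 1 was higher in each comparison (Sox10 in both of 14559R), and 1 lower in untreated 14559R. The part of these lists in the R over TN differences was not tested.

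**Figure D3:**
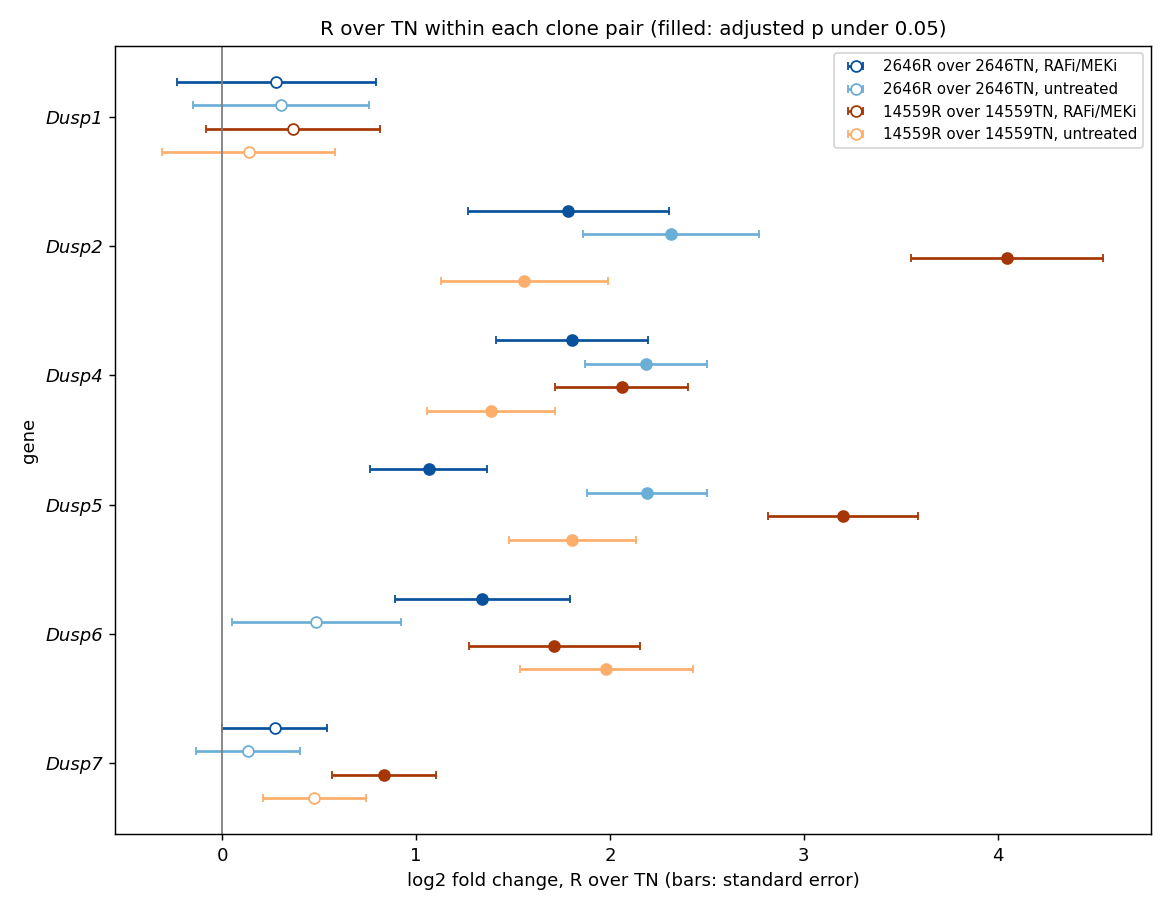
Log2 fold change of each member, R over TN, within each pair, with RAFi/MEKi and untreated; bars are standard errors and filled points have an edgeR adjusted p under 0.05. Dusp2, Dusp4 and Dusp5 are filled in all 4 comparisons, and treated 14559R over 14559TN reaches 4.05 for Dusp2 and 3.20 for Dusp5.

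Treated R tumours were also set against untreated TN tumours of the same pair. In treated 14559R 4 of 6 members stayed above untreated 14559TN, against 8.66% of all genes: Dusp2 by 2.37 ± 0.43, Dusp4 by 1.54 ± 0.33, Dusp5 by 1.47 ± 0.33 and Dusp6 by 1.69 ± 0.44 on the log2 scale (edgeR adjusted p = 0.000356, 0.00119, 0.00258 and 0.0121). The Dusp6 call was lost without untreated 14559TN replicate 1 or 2 (1.58 and 1.61, adjusted p = 0.0638 and 0.0566). In treated 2646R only Dusp5 was called against untreated 2646TN, higher by 1.41 ± 0.31 (adjusted p = 0.00134), so 1 of 6 members against 11.7% of all genes called higher. Dusp2 was at 1.20 ± 0.48 there (edgeR adjusted p = 0.0706) and was called by DESeq2 (1.25, adjusted p = 0.0283) and without treated 2646R replicate 1 (1.67, edgeR adjusted p = 0.00537).

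Among untreated TN clones, 13TN had the most Dusp2 and Dusp5. Dusp2 averaged 5.33 ± 2.43 CPM in 2646TN and 9.05 ± 2.82 CPM in 14559TN, against 88.4 ± 30.4 CPM in 13TN (SD, n = 3 each). The mean of the first 2 clones was lower than 13TN by 3.65 ± 0.34 on the log2 scale (12.5-fold, edgeR adjusted p = 6.34e-08). Dusp5 was lower by 1.91 ± 0.26 (3.76-fold, adjusted p = 7.90e-06). Dusp4 missed the threshold at -0.80 ± 0.28 (adjusted p = 0.0555) and was called without untreated 2646TN replicate 3 (-0.92, 0.0378), and also when the untreated TN clones were fitted alone (-0.79, 0.0167). These 2 of 6 members stood against 6.62% of all genes called lower. Over all 5 untreated clones Dusp2, Dusp4, Dusp5 and Dusp6 passed the F test (4 of 6 members, against 56.6% of all genes).

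Differences between responses were tested as well. For 2646R minus 2646TN none of the 6 members was called by edgeR, against 4.15% of all genes, and 1 of 6 (Dusp5, -1.13 ± 0.43, adjusted p = 0.143) had an unadjusted p under 0.05. DESeq2 also called 0 of 6 in it. For the 2646TN and 14559TN responses, averaged, less that of 13TN, none was called by edgeR, against 4.38%, and 2 of 6 had an unadjusted p under 0.05. These were Dusp1 (-1.65 ± 0.55, adjusted p = 0.102) and Dusp6 (-1.16 ± 0.54, adjusted p = 0.272). Dusp1 was called there by DESeq2 (-1.68, adjusted p = 0.0472) and without treated 14559TN replicate 2 (-2.11, edgeR adjusted p = 0.00923). Shares of all genes with an unadjusted p under 0.05 were not computed, so the counts at that threshold are not results about the members. The clone responses of Dusp2, Dusp4 and Dusp5 passed the F test, 3 of 6 members against 28.8% of all genes.

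Ordered by group mean, the members peaked in different groups. Dusp4 was highest in untreated 2646R (56.3 ± 19.4 CPM) and lowest in treated 2646TN (3.23 ± 1.11 CPM), a 17.4-fold span. Dusp5 was highest in untreated 2646R (98.3 ± 14.7 CPM) and lowest in treated 14559TN (3.49 ± 1.91 CPM), a 28.2-fold span. Dusp2 was highest in untreated 13TN and lowest in treated 14559TN, a 32.1-fold span. Dusp6 spanned 6.49-fold between untreated 14559R (351 ± 136 CPM) and treated 2646TN (54.0 ± 33.1 CPM), and Dusp1 6.99-fold between treated 13TN (119 ± 50.5 CPM) and treated 2646TN (17.1 ± 6.02 CPM). Of the 9 pairs of neighbours in each order, the tumours overlapped in 9 for Dusp2 and Dusp6, in 8 for Dusp1, Dusp4 and Dusp7 and in 6 for Dusp5. Untreated 2646R stood clear of the next group for both Dusp4 and Dusp5, and treated 14559TN stood clear below the others for Dusp5.

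Within groups, Dusp6 and Dusp7 deviated together. Their deviations from the group mean, on log2 CPM with prior count 2, had a Pearson r of 0.731 over 30 libraries. That r was 0.534 for Dusp2 and Dusp6 and between -0.17 and 0.42 for the other pairs of members. Treated 2646TN replicate 3 was lowest of its group in both (19.2 CPM of Dusp6 and 15.7 CPM of Dusp7), and so was treated 14559TN replicate 1 (31.8 and 20.7 CPM). Dusp2, Dusp4 and Dusp5, which were called higher in R in all 4 partner comparisons, were only weakly related within groups (r of -0.03 to 0.24). The points share library depth and handling, and these values are descriptions with no test.

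**Figure D4:**
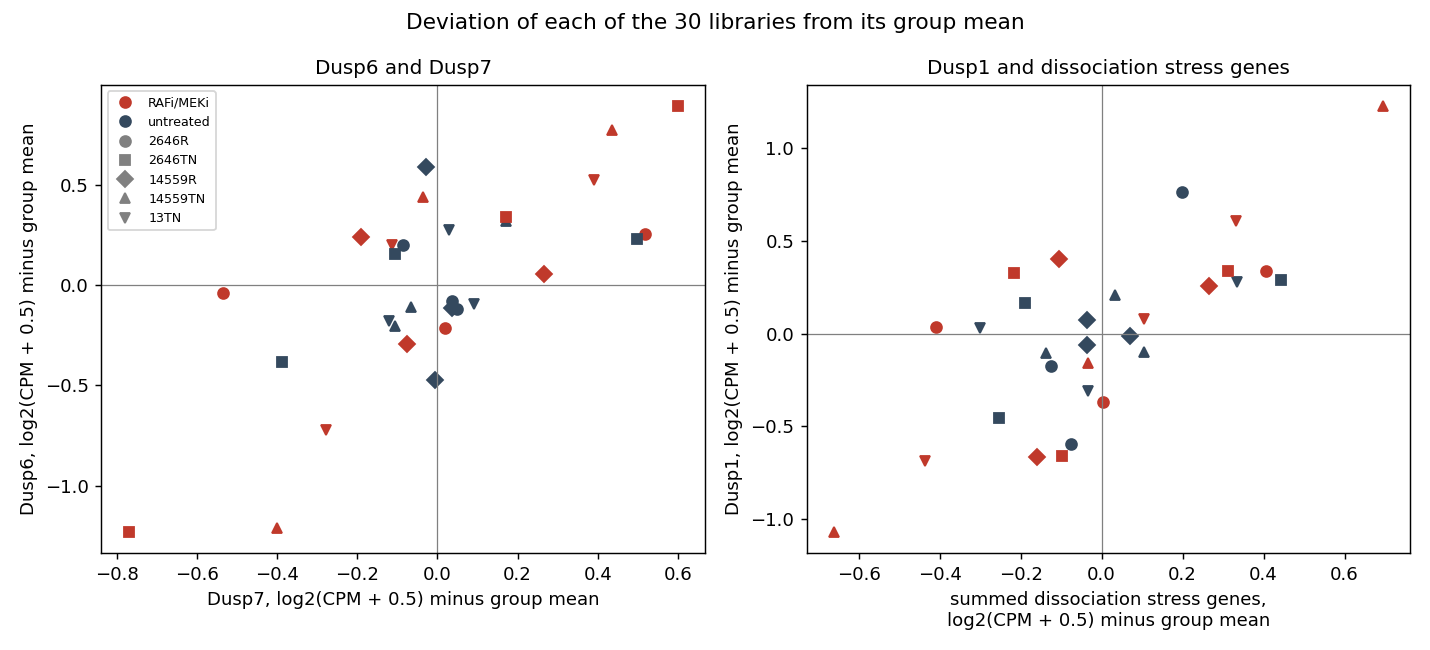
Deviation of each of the 30 libraries from its group mean in log2(CPM + 0.5): Dusp6 against Dusp7 on the left, Dusp1 against the summed dissociation stress genes on the right; colour gives the treatment and shape the clone. Treated 2646TN replicate 3 and treated 14559TN replicate 1 lie at the lower left for Dusp6 and Dusp7 (r = 0.731 on log2 CPM with prior count 2). Dusp1 follows the stress genes (r = 0.739 on the plotted scale).

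Among 10436 genes with a mean of at least 5 CPM, the patterns most like each member over the 30 libraries were as follows, by Pearson r of log2 CPM. Dusp4 was closest to Gadd45a (0.925), Plxna4 (0.918) and Aldh1l2 (0.909). Dusp2 was closest to Nab2 (0.857), Ereg (0.850) and Cyb561 (0.840), and Dusp5 to Polr2g (0.913) and Arpc2 (0.876). Dusp6 and Dusp7 shared their closest gene, Cept1 (0.914 and 0.857). For Dusp6 Elk4 (0.892) and Cmc1 (0.884) followed, and for Dusp7 Rab31 (0.839) and Col6a3 (0.833). Dusp1 was closest to Mfap1b (0.810), Ece1 (0.803) and Tapt1 (0.765). Over the 10 group means 1 of the closest 3 genes was again among the closest 3 for Dusp4 (Gadd45a), Dusp5 (Polr2g), Dusp6 (Cept1) and Dusp7 (Col6a3), and 0 for Dusp1 and Dusp2.

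Of the other MAP kinase phosphatases, Dusp9, Dusp10, Dusp16 and Dusp8, all 4 were tested. Dusp9, an ERK phosphatase of the cytoplasm, fell in 14559TN (-2.34 ± 0.81, edgeR adjusted p = 0.0280) and in 13TN (-1.93 ± 0.65, adjusted p = 0.0230). Dusp10, which acts on p38 and JNK, fell in 2646R (-2.17 ± 0.52, adjusted p = 0.00288). Dusp16, a JNK phosphatase, rose in 14559TN (1.23 ± 0.25, adjusted p = 0.000366). No gene of the 4 was called in the responses of 2646TN and 14559R. Dusp9 was higher in 14559R than in 14559TN by 4.13 ± 0.69 with RAFi/MEKi (adjusted p = 9.38e-06) and by 2.24 ± 0.52 untreated (0.00180). Dusp10 was higher in untreated 14559R (1.54 ± 0.54, adjusted p = 0.0361) and untreated 2646R (2.11 ± 0.52, 0.00189) than in their partners. Dusp8, which acts on p38 and JNK, was higher in untreated 14559R than in untreated 14559TN (2.23 ± 0.80, adjusted p = 0.0380). Dusp16 was lower in treated 14559R than in treated 14559TN (-0.69 ± 0.24, adjusted p = 0.0204). In 2646R over 2646TN no gene of the 4 but Dusp10 was called. Dusp8, Dusp9 and Dusp10 had few counts: Dusp8 had 38 in the untreated 14559R libraries together, against 7 in the untreated 14559TN libraries, Dusp9 had 4 in all 3 treated 14559TN libraries together, against 20 untreated, and Dusp10 had 43 in the treated 2646R libraries together, against 194 untreated.

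Of 30 other genes of ERK feedback and ERK targets, all tested, the counts called are given by clone and no difference between clones was tested for the list. With RAFi/MEKi 1 rose and 7 fell in 2646R, 0 rose and 3 fell in 2646TN, and 0 changed in 14559R. In 14559TN 4 rose and 10 fell, and in 13TN 8 rose and 6 fell. The shares of all genes called higher and lower in these clones, given above, were also largest in 14559TN and 13TN. The list's median log2 change was -0.15, -0.24, 0.12, -0.39 and -0.08 in these 5 clones in that order, beside medians over all genes of -0.002 to 0.012. Plaur, the urokinase receptor gene, fell most in 14559TN (-4.05 ± 0.43, edgeR adjusted p = 1.09e-08) and 13TN (-3.55 ± 0.36, 3.27e-09). Spry1, a Sprouty inhibitor of the same pathway, rose most in 13TN (2.98 ± 0.55, adjusted p = 0.000179).

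Between partners, 19 of these 30 genes were higher and 1 was lower in treated 14559R against treated 14559TN, with a median of 1.29 beside 0.02 over all genes. Untreated, 13 were higher and 1 lower, with a median of 0.56. In 2646R over 2646TN 5 were higher and 2 lower with RAFi/MEKi (median 0.42) and 7 higher and 4 lower untreated (median 0.45). Etv4, an ETS factor downstream of ERK, was the gene of the list that rose most in treated 2646R over treated 2646TN (1.48 ± 0.29, edgeR adjusted p = 0.000837). Etv1, another ETS factor, was the lowest called gene in both treated comparisons (-0.69 ± 0.20 for 14559R over 14559TN, adjusted p = 0.00594, and -0.75 ± 0.21 for 2646R over 2646TN, 0.0111). Phlda2 had the largest fitted difference of treated 14559R over 14559TN, but 37 of its 38 counts in treated 14559R came from 1 tumour and all 14559TN libraries were at 0, so no fold is given.

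Among 17 tested ERK pathway kinases and RAS genes, Map2k1, which encodes the drug target MEK1, and the scaffold gene Ksr1 moved opposite ways. With RAFi/MEKi Map2k1 fell in 2646R (-1.37 ± 0.20, edgeR adjusted p = 9.08e-06), 14559TN (-0.83 ± 0.21, 0.00316) and 13TN (-0.58 ± 0.20, 0.0267), while Ksr1 rose in 2646R (1.20 ± 0.33, 0.00926), 14559TN (0.87 ± 0.28, 0.0185) and 13TN (1.34 ± 0.29, 0.000455). In all, 1 rose and 2 fell in 2646R, 3 rose and 8 fell in 14559TN, 3 rose and 5 fell in 13TN, and 0 changed in 2646TN and in 14559R. Of 10 other tested dual-specificity phosphatases, Dusp14 was higher in untreated 2646R (1.41 ± 0.28, adjusted p = 0.000195), untreated 14559R (1.56 ± 0.29, 0.000170) and treated 14559R (1.68 ± 0.30, 2.87e-05) than in their partners, and it fell in 13TN with RAFi/MEKi (-1.36 ± 0.33, 0.00165). Of 13 other tested MAP kinase genes 0 rose and 3 fell in 2646R, 4 rose and 4 fell in 14559TN, 1 rose and 3 fell in 13TN, and 0 were called in 2646TN and 14559R. These lists and the members were chosen with earlier results of the same data known.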

How the data were processed

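Messenger RNA was sequenced from transcript 3′ ends (Lexogen QuantSeq) in 30 tumours of 10 clone-by-treatment groups, 3 each. The authors deposited raw read counts for each gene, per the file headers; per the submitters' processing notes the authors used STAR 2.6.0c, featureCounts 1.6.2 and GRCm38. The headers show paired, stranded counting, so antisense reads are kept apart.

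The 6 members, the gene lists and the comparisons were chosen with earlier results of these data known. Samples were grouped by clone and treatment as labelled. Every tumour has its own number in the titles, so p-values cover the spread between tumours of 1 clone, and none covers the spread between clones. No pair of libraries agreed within counting error (chi-square per degree of freedom of 3.26 to 17.17).

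Counts were tested in R 4.3.3 with edgeR 4.0.16 (filterByExpr by group, TMM, robust quasi-likelihood, 20 residual degrees of freedom, 13286 genes, biological coefficient of variation 18.2%), in 1 fit of all groups, with Benjamini-Hochberg adjustment and a threshold of 0.05. There were 18 comparisons. Each SE was derived as the size of the log2 change divided by the root of its quasi-likelihood F. The steps were tested on simulated data. Named beyond the members were the 3 genes most like each by Pearson r (log2 CPM, prior count 2; 1 gene of Dusp5 is not reported here), and the called genes with the largest and smallest change of a list; Dusp14, Plaur, Map2k1 and Ksr1 were followed into further comparisons after their values were seen. Alternatives were median-of-ratios size factors, no low-count filter, a fit of only the compared groups, DESeq2 1.42.0 and leaving out each library.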

Additional observations from a re-analysis of the deposited data

Results flagged for a closer look

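Members whose response to RAFi/MEKi differed between clones by a test of the difference itself are given here. The Dusp2 response of 14559R minus that of 14559TN was 2.49 on the log2 scale (edgeR adjusted p = 0.0158): all 3 treated 14559R tumours lay above the untreated ones, and all 3 treated 14559TN tumours lay below theirs. The F statistic for any difference among the 5 clone responses was 6.20 for Dusp2, 10.4 for Dusp4 and 4.67 for Dusp5 (edgeR adjusted p = 0.00827, 0.000246 and 0.0239). Groups of 3 tumours were not screened for single outlying samples.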

How the results depend on the processing

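Calls of the 6 members were set against the main fit in 18 comparisons, and those that changed are given. In this, 0 values of a member reversed direction while called in either setting. Median-of-ratios size factors kept every member's side of the threshold in all 18, and moved the median of all genes by at most 0.043 (log2). Without the low-count filter 5 members were called in the 13TN response against 3 with it, 4 against 1 in the 2646R response, 3 against 1 in the 2646TN response and 1 against 0 in the 14559R response. In the response differences it called 2 against 0 for 2646R minus 2646TN, 2 against 1 for 14559R minus 14559TN, 2 against 0 for the TN pair clones minus 13TN and 5 against 3 for any difference among clones. It called 4 against 1 for treated 2646R over untreated 2646TN and 4 against 2 for the untreated TN clones over 13TN. A fit of only the compared groups called 3 against 1 in the 2646R response, 2 against 1 in the 2646TN response, 2 against 4 for treated 2646R over treated 2646TN, 3 against 1 for treated 2646R over untreated 2646TN and 4 against 2 for the untreated TN clones over 13TN. It could not be used for the mean response or for the difference among all responses, as both need every group. DESeq2 called 2 against 1 for 14559R minus 14559TN, 1 against 0 for the TN pair clones minus 13TN, 2 against 1 for treated 2646R over untreated 2646TN and 4 against 3 for any difference among clone responses. Without the filter Dusp1 was also called in the mean response and among untreated clones, and Dusp6 in untreated 2646R over untreated 2646TN. The fit of only the compared groups also called Dusp7 among untreated clones, and in untreated and treated 14559R over untreated 14559TN. Shares of all genes called were not computed for these other fits or those below, so the counts are not results about the members. The cause of these differences was not tested.

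Leaving out each library in turn gave 1 to 2 members in the 14559TN response, 1 to 2 in the 2646R response, 0 to 2 for 14559R minus 14559TN, 0 to 1 for the TN pair clones minus 13TN, 1 to 3 against 4 for treated 2646R over treated 2646TN, 2 to 4 against 3 for any difference among clone responses and 1 to 2 for treated 2646R over untreated 2646TN. The same fits gave 2 to 3 members in the 13TN response, 3 to 4 in the mean response and 3 to 4 for untreated 14559R over untreated 14559TN. They gave 4 to 6 for treated 14559R over treated 14559TN and 3 to 4 for treated 14559R over untreated 14559TN. For the untreated TN clones over 13TN they gave 2 to 3. The Dusp4 calls in the responses of 2646R, 2646TN and 13TN held in all of these fits, with adjusted p at most 0.0305. No paired analysis was possible because every tumour has its own number and the labels pair none across groups. Counts were low for Dusp2 (6 to 17) and Dusp4 (6 to 15) in treated 2646TN libraries and for Dusp2 (8 to 15) and Dusp5 (7 to 27) in treated 14559TN libraries, where small differences were not detectable.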
